A study of Homo sapiens with 8 samples.

Results

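FGF2 and FGF5 are the fibroblast growth factor genes with regions in the lists deposited with a series on RNA recovered with the translation initiation factor eIF4G2 from human cardiac fibroblasts. They were taken by gene name from the authors' region lists, counting a region once per gene when it lay inside the gene or overlapped it. They account for 18 of 3210 regions in all, 8 of 1986 in the list from cells overexpressing eIF4G2 (the OE list) and 10 of 1224 in the list from scramble control cells (the scramble list). FGF2 had 3 regions in each list. FGF5 had 5 regions in the OE list and 7 in the scramble list.

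The cells, IHCF, are immortalized human cardiac fibroblasts grown with serum and insulin. They carried a lentiviral overexpression vector, either with full-length eIF4G2 or with a scramble control, and RNA was recovered from lysates of both with an antibody against eIF4G2 and sequenced (RIP-seq). No label says that the control cells lack their own eIF4G2. Each condition had 2 libraries of bound RNA and 2 of total RNA, 8 in all, but each list is 1 table for its condition, with no value per library, read count, score or p-value. Differences between the lists therefore have no replicate check and no test, and the absence of a region does not show that a gene's RNA was unbound. The conditions of the lists are known from the table names alone. Those names also mention MOV10, an RNA helicase, which appears in no sample label, so the names do not settle which protein's bound RNA the lists describe.

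Fibroblast growth factors are secreted ligands that bind heparan sulphate and activate tyrosine kinase receptors at the cell surface, from which adaptor proteins carry the signal to the Ras and MAP kinase pathway. FGF2 is a mitogen of fibroblasts and many other cells. Its mRNA is known for several start codons, CUG codons upstream of the AUG among them, and for a 5′ leader that can support initiation without the cap. FGF5 is best known as a regulator of the hair cycle. NUDT6, a nudix hydrolase gene, is transcribed from the opposite strand over the 3′ part of FGF2 and is also called FGF2 antisense.

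Both genes lie on the plus strand of chromosome 4, which holds 491 OE regions and 1185 scramble regions. Among its 770 RefSeq protein-coding genes, 27.3% were listed with OE regions, 43.1% with scramble regions and 24.0% with both, so a listing in both is common there. The authors' tables place every region edge of chromosome 4 on a grid of 200 bp or of 215 bp, with 0 edges off both grids, so an edge is known no better than to about the width of a bin. The library behind each grid is not stated. The narrowest region of chromosome 4 measured 400 bp in the OE list and 200 bp in the scramble list, so counts of regions are not on equal terms. Coordinates are those of the authors' tables (GRCh38), and the gene ends are those of RefSeq for GRCh38.p14. Exons and introns are not separated here, because the tables used give whole transcript and gene spans. None of 18 marker genes of fibroblasts, endothelium, cardiomyocytes and leukocytes had a region in either list. Only 3 of them lie on chromosomes 4, 10 or 18, where nearly all regions are, so the cell type could not be checked from the lists.

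In FGF5 (ENSG00000138675, chr4:80266588-80291017 in RefSeq), the regions of both lists began near the 3′ end of the gene and ran on past it. The earliest, in the scramble list, starts 19573 bp into the gene. In the OE list the authors' 5 regions formed a nearly closed row. The first was chr4:80287201-80287600 (400 bp) and the second chr4:80287666-80288525 (860 bp). The widest was chr4:80288741-80291535 (2795 bp), which crosses the RefSeq end of the gene by 518 bp. The last 2, chr4:80291801-80293600 (1800 bp) and chr4:80293801-80294975 (1175 bp), lie wholly beyond that end. The gaps between these 5 regions measured 65 to 265 bp, and the regions filled 90.4% of the 7775 bp from the first to the last base.

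In the scramble list the row was longer and less filled. Its first region, chr4:80286161-80288600 (2440 bp), began 1040 bp before the first OE region. Its widest, chr4:80288801-80293255 (4455 bp), crossed the gene end by 2238 bp. It was followed by chr4:80293401-80294545 (1145 bp), chr4:80294976-80295405 (430 bp) and chr4:80295621-80295835 (215 bp). After gaps of up to 3365 bp came chr4:80299201-80300400 (1200 bp) and chr4:80303361-80304650 (1290 bp), which ends 13633 bp beyond the RefSeq end. The 7 scramble regions stretched over 18490 bp and filled 60.4% of it.

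**Figure D1:**
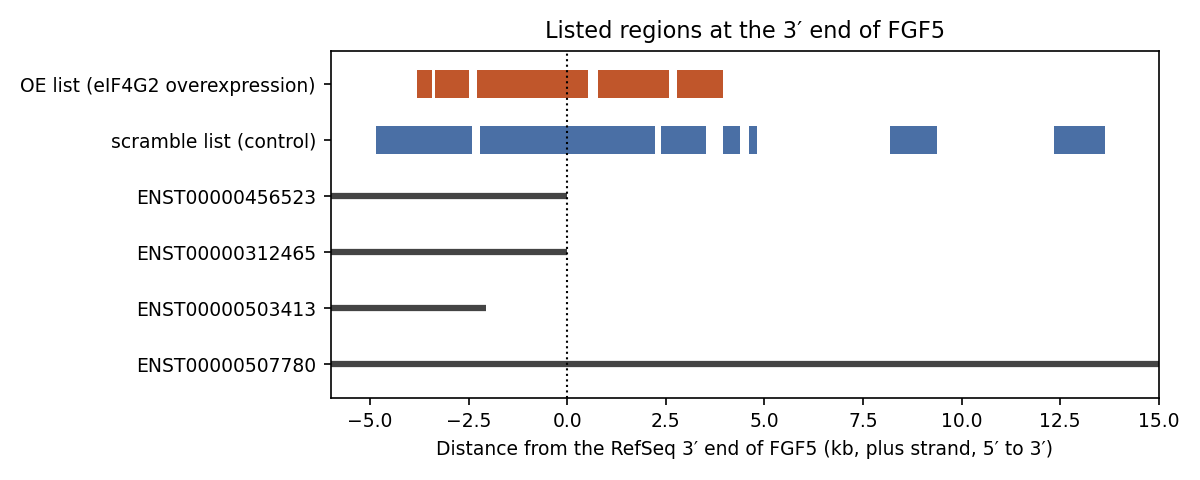
Regions over FGF5 in the eIF4G2 OE list (upper row) and in the scramble list (second row), against distance in kb from the RefSeq 3′ end of the gene (dotted line), with the listed Ensembl transcripts as dark lines running on to the left. The 5 OE regions end 3958 bp beyond the gene end, and the scramble row goes on to 13633 bp.

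The OE regions of FGF5 lay almost wholly on scramble regions. All 5 shared bases with a scramble region, and 3 of the 7 scramble regions shared bases with an OE region, against 65.6% of the 474 OE regions in genes of chromosome 4 (95% Wilson interval 61.2 to 69.7) and 26.9% of the 1082 scramble regions (24.3 to 29.6). These intervals cover counting error only and treat neighbouring regions as independent. Where an overlap had to cover at least 50% of both regions, 2 of the 5 OE regions and 2 of the 7 scramble regions of FGF5 still had a counterpart. The lists shared 6395 bp in FGF5, which is 91.0% of its 7030 bp in the OE list and 57.2% of its 11175 bp in the scramble list. Among the 185 coding genes of chromosome 4 in both lists the median gene shared 69.3% of its OE length, and 43 genes shared more than FGF5. For the scramble length the median was 36.4%, and 49 genes shared more. The OE list had 635 bp of FGF5 that the scramble list lacked, and the scramble list had 4780 bp that the OE list lacked. The 4 scramble regions with no counterpart are the last 4 of the row, all beyond the RefSeq end.

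About as much of FGF5 was listed beyond the RefSeq end as within it. In the OE list 3537 bp lay within the RefSeq gene and 3493 bp beyond it (49.7%). In the scramble list 4657 bp lay within and 6518 bp beyond (58.3%). The regions wholly beyond the end, 2 and 5 in number, are assigned to FGF5 through ENST00000507780 alone, the only one of its 4 listed transcripts that runs further, by 45663 bp. Of the other 3 transcripts, 2 end with the RefSeq gene and 1 ends before it. Over the RefSeq gene span alone FGF5 had 3 OE and 2 scramble regions, the opposite order by count, though the scramble length there was still the larger. Of the chromosome 4 coding genes with a region, 9 of 210 in the OE list (4.29%) and 17 of 332 in the scramble list (5.12%) had a region wholly beyond their RefSeq end. In the OE list CRMP1 had the most, with 4, followed by ELF2 with 3 and by FGF5, MRPS18C and TMEM184C with 2 each. MAPK10 had the most in the scramble list, with 6, followed by FGF5, MRPS18C and REST with 5 each. These cases are not all alike. MAPK10 and ARHGAP24 each had 6 scramble regions of 3105 bp in sum, and 2971 bp of ARHGAP24's lie within its own RefSeq span. TMEM184C and PRMT9 each had 3 OE regions of 2815 bp in sum. The regions of FGF5 lie over no other listed gene. The next coding gene, CFAP299, starts 30248 bp after FGF5, beyond the last of these regions, and had none. Whether the RNA beyond the end belongs to the long transcript or to RNA that continued past the end was not tested.

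By covered length, the summed width of its regions, FGF5 was number 3 of 210 chromosome 4 coding genes in the OE list, after ANKRD17 (7930 bp) and CRMP1 (7440 bp). It was number 4 of 332 in the scramble list, after NSD2 (17470 bp), TACC3 (16050 bp) and ANKRD17 (11460 bp). The median listed gene had 1430 bp in the OE list and 2330 bp in the scramble list. These ranks of FGF5 include 3493 bp (OE) and 6518 bp (scramble) beyond its RefSeq end. Within RefSeq spans, FAM193A (6625 bp) and CENPE (6125 bp), among others, exceeded the 3537 bp of FGF5 in the OE list. In the scramble list TMEM165 (10795 bp) and SEPTIN11 (9924 bp), among others, exceeded its 4657 bp. By RefSeq FGF5 is not a long gene, since 142 of the 185 coding genes in both lists are longer than its 24430 bp. But ENST00000507780, through which the regions beyond that end are counted, spans 69739 bp, above the median RefSeq length of 64258 bp. The ratio of OE to scramble length was 0.629 for FGF5, close to the middle of the 185 genes (median 0.560, quartiles 0.350 and 0.973). Scaled to the covered length of chromosome 4 in each list, the ratio of FGF5 became 1.5, so no direction can be read from it.

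FGF2 (ENSG00000138685, chr4:122826682-122898236 in RefSeq) differed from FGF5 in where its regions lay. In the OE list it had 1 region at each end of the gene and 1 at the start of the part it shares with NUDT6. The authors' first region, chr4:122827001-122827995 (995 bp), begins 319 bp after the RefSeq start, lies within all 3 listed FGF2 transcripts and lies over no other gene. The second, chr4:122892066-122893400 (1335 bp), lies 64070 bp further on. The third, chr4:122897801-122898730 (930 bp), crosses the 3′ end of the gene by 494 bp. In the scramble list all 3 regions lay together within 3870 bp near the 3′ end, at chr4:122892066-122892280 (215 bp), chr4:122892601-122893800 (1200 bp) and chr4:122894001-122895935 (1935 bp). None of them lay near the 5′ end, and the last ended 2301 bp before the 3′ end of the gene.

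**Figure D2:**
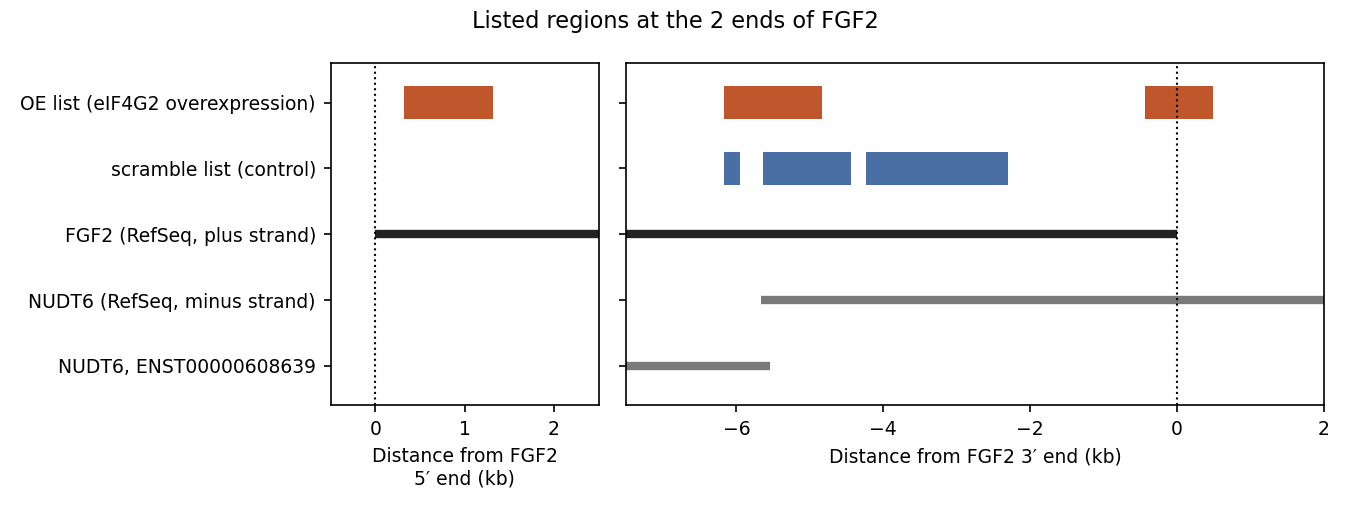
Regions over FGF2 in the eIF4G2 OE list (upper row) and in the scramble list (second row), against distance in kb from the 5′ end (left) and the 3′ end (right) of the gene, with the RefSeq spans of FGF2 and NUDT6 and the short NUDT6 transcript ENST00000608639 below. The region 319 bp after the FGF2 start is in the OE list only and lies over no NUDT6 transcript.

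The middle OE region and the first scramble region began at the same base, 122892066. That scramble region, of 215 bp, is narrower than any OE region of chromosome 4. Of the 1335 bp of that OE region, 1015 bp (76.0%) lay on the first 2 scramble regions, and this was all that the lists shared in FGF2. The other 2 OE regions and the third scramble region had no counterpart. So 1 of 3 OE regions and 2 of 3 scramble regions overlapped the other list, against 65.6% and 26.9% in genes of chromosome 4. Those shares again include genes found in 1 list only. Where an overlap had to cover at least 50% of both regions, 1 scramble region kept a counterpart. The shared part is thus 31.1% of the 3260 bp of FGF2 in the OE list and 30.3% of its 3350 bp in the scramble list. Of the 185 coding genes of chromosome 4 in both lists, 153 shared more of their OE length than FGF2 and 109 shared more of their scramble length. The summed lengths of FGF2 were nearly equal, with a ratio of OE to scramble of 0.973 (2.33 after that scaling). The median ratio of the 185 genes was 0.560, and 46 genes had a higher ratio than FGF2. All 3350 bp of the scramble length and 2265 bp of the OE length lie in regions also over NUDT6. The ratio and the shared lengths therefore cannot be given to FGF2 alone. Most of the FGF2 length in either list was not shared. For the scramble length the 30.3% was near the median of 36.4%, while for the OE length the 31.1% lay well below the median of 69.3%.

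**Figure D3:**
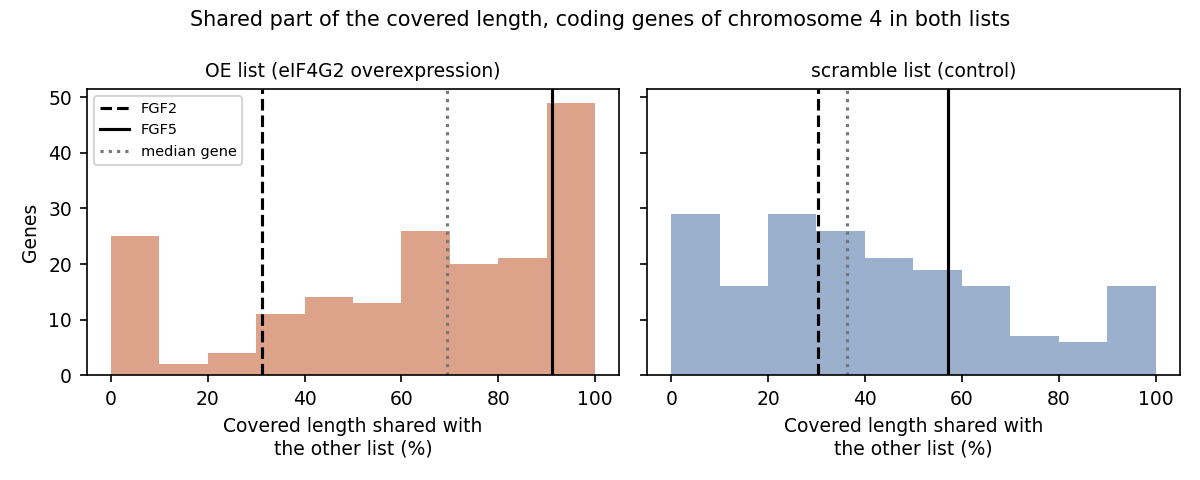
Share of each gene's covered length, in percent, that also lay under a region of the other list, for the 185 coding genes of chromosome 4 in both lists, as a share of the OE length (left) and of the scramble length (right). FGF2 (dashed) lies at 31.1% and 30.3%, FGF5 (solid) at 91.0% and 57.2%, and the median gene (dotted) at 69.3% and 36.4%.

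A region at the 5′ end was rare on chromosome 4. Of the coding genes with a region, 19 of 210 in the OE list (9.05%) and 56 of 332 in the scramble list (16.9%) had one over the first 1 kb of the RefSeq gene, while 105 and 205 of them had one over the last 1 kb. Of the 185 genes in both lists, 3 had a region over the first 1 kb in the OE list only, FGF2 and the mitochondrial phosphatase gene PPM1K among them. The opposite, a region there in the scramble list only, occurred in 17 genes, and 16 had one in both. The 1 kb window was set after the FGF2 region had been seen, so these counts describe how often such a region occurs and give the region of FGF2 no support. With windows of 500, 2000 and 5000 bp, 4, 4 and 5 genes had a 5′ region in the OE list only, FGF2 among them each time.

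NUDT6 limits what can be said of the 3′ regions. RefSeq places NUDT6 on the minus strand at chr4:122892577-122922968, so the last 5660 bp of FGF2 lie under both genes, and the regions have no strand. Per the authors' assignment, 2 of 3 OE regions of FGF2 (2265 bp) and all 3 scramble regions (3350 bp) also lie over NUDT6 transcripts. Leaving these out, FGF2 had 1 region of 995 bp in the OE list and none in the scramble list. The shared start of the middle OE region and the first scramble region lies 511 bp before the RefSeq span of NUDT6, and the first scramble region touches NUDT6 only through the short transcript ENST00000608639 (chr4:122888697-122892688). Read by RefSeq alone, 1506 bp of the OE regions and 215 bp of the scramble regions lie outside NUDT6. Over NUDT6 alone there was no OE region, and the scramble list had 2, chr4:122917436-122917650 (215 bp) and chr4:122918001-122918510 (510 bp), and the share of FGF2 and NUDT6 in the 3′ regions cannot be told apart.

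The bin grids give one more description of the regions. All 3 OE regions of FGF2 had one edge on the 200 bp grid and the other on the 215 bp grid, which a row of bins of 1 size cannot give. On chromosome 4, 33.0% of OE regions and 26.7% of scramble regions had such mixed edges. Of the scramble regions of FGF2, 1 had both edges on the 200 bp grid and 1 both on the 215 bp grid, and the third began at a position that lies on both grids. In FGF5, 1 of 5 OE regions and 3 of 7 scramble regions were mixed. Of its 4 scramble regions without a counterpart, 3 had both edges on the 215 bp grid, 1 had both on the 200 bp grid and none was mixed.

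**Figure D4:**
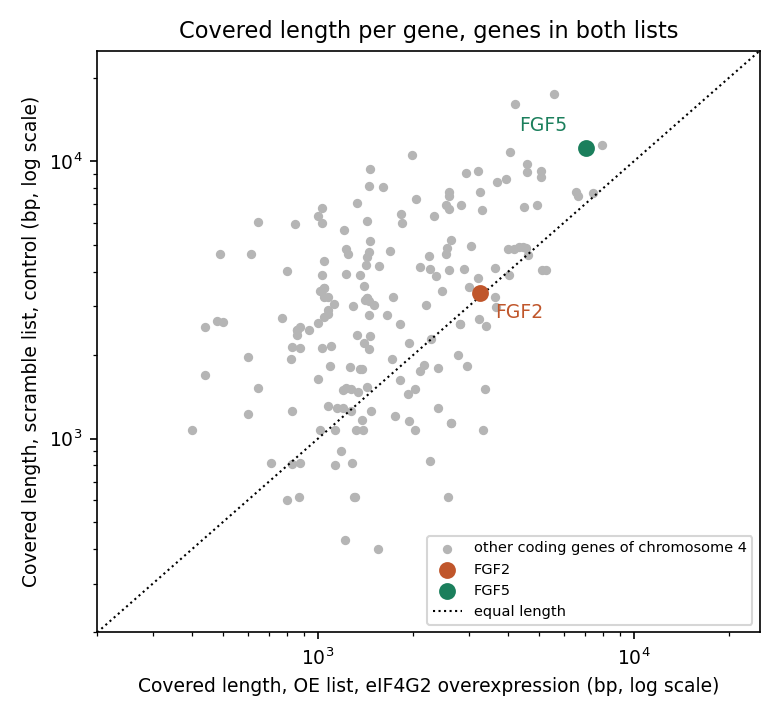
Covered length in bp per coding gene of chromosome 4 in the eIF4G2 OE list (horizontal) and in the scramble list (vertical), on log scales, for the 185 genes in both lists. FGF5 (7030 and 11175 bp) lies among the most covered genes and above the dotted line of equal length, and FGF2 (3260 and 3350 bp) lies almost on it. These lengths are full widths and include what lies beyond RefSeq gene ends.

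The genes most like each member were taken as those with the smallest distance in log2 covered length over the 2 lists, among the 184 other coding genes of chromosome 4 in both. For FGF2 they were ELOVL6 (3000 bp in the OE list and 3525 bp in the scramble list, distance 0.14), GRK4, DCUN1D4, FNIP2 and ZNF718, with distances up to 0.31. These 5 shared 46.1% to 87.8% of their OE length with the scramble list, each more than the 31.1% of FGF2. The lengths of FGF2 used here include its regions also over NUDT6. For FGF5 the nearest was ANKRD17 (7930 and 11460 bp, distance 0.18), followed at 0.54 to 0.58 by CENPE, UBE2D3, CRMP1 and ELF2. ANKRD17 reached its length with 8 OE and 18 scramble regions, the widest 2170 bp in each list. FGF5 had 5 and 7, the widest 2795 and 4455 bp and the narrowest 400 and 215 bp. Few regions were not particular to FGF5, since ELF2 had 4 OE regions (5095 bp) and 8 scramble regions (8770 bp).

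The 3 nearest coding genes on each side of the members differed in whether they carried regions. Before FGF5, PRDM8, 62259 bp away, had no OE region and 1 scramble region of 800 bp, and ANTXR2, an anthrax toxin receptor, had no OE region and 1 scramble region of 2915 bp, while GK2 had none in either list. After FGF5, CFAP299, BMP3 and PRKG2 had none in either list. Before FGF2, BBS12 had no OE region and 1 scramble region of 400 bp, and IL21 and IL2 had none. After FGF2 and NUDT6, the ATPase gene AFG2A, listed as SPATA5, had 2 OE regions (2595 bp) and 4 scramble regions (4040 bp), and SPRY1, an inhibitor of FGF signalling 498559 bp after FGF2, had none. ANKRD50, 1765812 bp after FGF2, had 1 OE region (1415 bp) and 3 scramble regions (4225 bp), so 2 of the 3 genes after FGF2 and NUDT6 were in both lists.

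Few other genes of the FGF pathway were listed, but most genes of the pathway list lie outside chromosomes 4, 10 and 18, which hold nearly all regions. Of 72 further names in the list of ligands, receptors, co-receptors, carriers, signal relay proteins, inhibitors and heparan sulphate genes, 71 matched RefSeq, and 14 of these lie on chromosomes 4, 10 or 18. None of the other ligands had a region; FGF8, on chromosome 10, is the only one on these chromosomes. Among receptors, FGFRL1, a receptor gene without the kinase domain, had no OE region and 1 scramble region, chr4:1025121-1027700 (2580 bp), which also lies over an unnamed gene. FGFR3 on chromosome 4 and FGFR2 on chromosome 10 had none, nor had the co-receptor gene KLB or the carrier genes FGFBP1, FGFBP2 and FGFBP3. GAB1, an adaptor that relays receptor signals, had no OE region and 3 scramble regions (215, 1290 and 1000 bp) near its 3′ end. NDST2, an enzyme that sulphates heparan chains, had 2 OE regions on chromosome 10 (3075 and 410 bp), which lie over ZSWIM8, ZSWIM8-AS1 and an unnamed gene as well, and no scramble region. NDST3, NDST4 and HS3ST1, of the same pathway, had none. On chromosome 4 this makes 0 of 10 such genes in the OE list and 2 of 10 in the scramble list, where 27.3% and 43.1% of all coding genes were listed. These 10 genes are too few to read a trait of the pathway from. FGF2 and FGF5 were the 2 FGF pathway genes named here with regions in both lists, and they had been chosen with their listing known.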

How the data were processed

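RNA recovered with an antibody against eIF4G2 and total RNA were sequenced from IHCF cells after DNase treatment and poly(A) enrichment, per the labels' protocols. Reads were processed with bcl2fastq 2.19.0, Trimmomatic 0.36 and HISAT2 2.1.0, with GRCh38 as the build, per the submitters' processing notes. Neither these nor the labels name a region caller, a threshold, a background or how replicates were joined. The authors deposited 1 table of regions per condition, with other values than counts: positions, widths and distances in bp, without normalization, per the file headers. Depth is unknown, and the tests over replicates set out for counts were not possible. A region was counted for a gene when it lay inside or overlapped a listed transcript. Overlap was at least 1 bp. Covered length is the summed full width of a gene's regions. Gene spans, types and neighbours came from RefSeq (GRCh38.p14), which matched all 413 gene names listed on chromosome 4. Bin sizes were the only pair between 150 and 400 bp whose multiples held every region edge of chromosome 4. The members and gene lists were chosen with earlier results of these data known, and gene names follow that choice: the members, NUDT6, the pathway list, neighbours and the 5 most alike genes. The overlap functions were tested on simulated data. Python 3.11.15, pandas 2.3.3, numpy 2.4.6, scipy 1.17.1 and matplotlib 3.10.9 were used.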

Additional observations from a re-analysis of the deposited data

How the results depend on the processing

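Of 46 alternative values, 33 stayed within 1.5 times the value given above and 13 did not. With regions up to 1000 bp apart merged, FGF5 had 1 region in the OE list and 3 in the scramble list, and FGF2 had 3 and 1, and in each gene 1 merged region of each list overlapped the other list. With an overlap of at least 50% of both regions, 2 of 5 OE regions of FGF5 and 1 of 3 scramble regions of FGF2 still overlapped the other list. Over the RefSeq gene span alone, chosen after seeing the data, FGF5 had 3 regions in the OE list and 2 in the scramble list. The order of the counts thus turned round, but that of the covered length within this span did not (3537 bp OE and 4657 bp scramble, ratio 0.76). Scaling to the covered length of chromosome 4 (425005 and 1015765 bp, ratio 0.418) turned the ratio of OE to scramble from 0.629 to 1.5 for FGF5 and from 0.973 to 2.33 for FGF2. The same constant divides every gene, so neither scale gives a direction for these genes. Leaving out regions over several genes left no scramble region of FGF2 and so no ratio. With only regions of at least 400 bp, FGF2 kept 3 OE and 2 scramble regions, and FGF5 kept 5 and 6. The window of 5000 bp at the 5′ end gave 5 genes in place of 3. No paired analysis was possible because each condition has 1 table with no value per replicate.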
